A study of Mus musculus with 4 samples.

Results

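The 10 genes described here encode the transcription factors of the immediate early response: Fos, Fosb and Junb, which pair to form the factor AP-1; Atf3, a related leucine zipper factor; the zinc finger factors Egr1, Egr3 and Klf4; and the orphan nuclear receptors Nr4a1, Nr4a2 and Nr4a3. They were taken by symbol from the 21884 genes counted, and all 10 were found. The counts are single-nucleus RNA molecules (UMIs, each a tagged transcript counted once) from 4 whole hearts, 1 heart per library. All hearts came from male wild-type C57BL/6J offspring that were injured at day 1 after birth and taken at 21 days after that injury. The fathers had been injured for 2 hearts (injured-father libraries 1 and 2) and had not been injured for the other 2 (uninjured-father libraries 1 and 2), so every heart in every group was itself injured and there is no uninjured offspring among the samples used here. The labels do not give the litters or say whether the hearts of a group share a father, so p-values measure only the spread between these 4 hearts.

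Immediate early genes are switched on within minutes of a stimulus, such as a growth factor, calcium entry, stretch or wounding, without new protein synthesis. Kinases act on factors already bound near their start sites, among them SRF with its Elk partners and CREB, which binds the cAMP response element. The messages are short-lived, and the proteins then control a later set of genes. In the heart the Fos, Jun and Egr genes are known for their response to injury and load. Nr4a receptors respond to cAMP and to adrenergic signals, and Klf4 is known in endothelium as a factor that responds to flow. Dissociation of living tissue can also induce these genes. Here the hearts were snap frozen before nuclei were released. The design asks whether the nuclei of an injured heart differ with the father's history of cardiac injury.

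Barcodes that passed the filters on depth and doublets numbered 8251 and 9537 in the injured-father libraries and 9416 and 6791 in the uninjured-father libraries, with totals between 15651493 and 32862239 UMIs and medians between 1860 and 2665 UMIs per nucleus. Uninjured-father library 2 was the shallowest and had the most marked doublets (14.9% against 9.62% to 9.93% in the others). Each pair of libraries shared between 23 and 33 barcode sequences. Nuclei were clustered without the 10 genes, and clusters were called X-like from marker genes, which gave 9 classes with at least 50 nuclei in every library. The largest were cardiomyocyte-like (9455 nuclei), fibroblast-like (8375) and vascular endothelial-like (7262). The T or NK lymphocyte-like, adipocyte-like, mesothelial-like and Schwann or glial-like classes were too small in at least 1 library to be tested. Adipocyte-like and mesothelial-like nuclei were unevenly spread, with 174 and 113 adipocyte-like nuclei in the injured-father libraries against 16 and 7 in the uninjured-father libraries.

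All 10 genes are rare messages in these nuclei. Over the 4 libraries they gave 51 UMIs for Fosb, 231 for Fos, 310 for Egr3, 391 for Atf3, 517 for Nr4a3, 802 for Junb, 811 for Nr4a2, 2080 for Nr4a1, 2135 for Egr1 and 4039 for Klf4. Their summed level was 117 and 122 CPM (UMIs of the genes scaled to the same total in every library) in the injured-father libraries and 83.6 and 126 CPM in the uninjured-father libraries. Uninjured-father library 1 therefore had the lowest summed level, and the other 3 lay close together. The UMIs of a 3' end assay are not counts per length, so no order of level is drawn between the genes. Nr4a3 lies on chr4:48045153-48086447 and Junb on chr8:84974484-84978718 in GENCODE M21 of the GRCm38 build. Junb overlaps Prdx2 on the opposite strand and Atf3 overlaps Gm24748. The strand setting of the counting is not given in the sources used here, so reads from such overlaps may not be separable.

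Upstream sequence is shown for the 3 Nr4a genes, which hold the most copies of the core of the cAMP response element, and for Junb, which holds 1 copy and is also described below in fibroblast-like nuclei. The sequences are RefSeq promoters of the GRCm38.p6 build, given from 250 bases before the start site up to the base before it. Nr4a3 is cut at 153 bases before the start because the GENCODE gene model begins there. The Nr4a1 window lies inside the GENCODE gene (chr15:101254269-101274795), between an upstream start and the RefSeq start used here. Capitals mark the core TGACG, or its reverse complement CGTCA.

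Nr4a1, chr15:101266596-101266845, plus strand: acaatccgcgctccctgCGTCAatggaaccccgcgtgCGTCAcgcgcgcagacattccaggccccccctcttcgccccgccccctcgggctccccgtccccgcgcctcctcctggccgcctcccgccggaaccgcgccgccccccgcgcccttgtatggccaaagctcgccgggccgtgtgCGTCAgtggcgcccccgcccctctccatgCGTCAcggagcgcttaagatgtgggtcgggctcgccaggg
Nr4a2, chr2:57124004-57124253, minus strand: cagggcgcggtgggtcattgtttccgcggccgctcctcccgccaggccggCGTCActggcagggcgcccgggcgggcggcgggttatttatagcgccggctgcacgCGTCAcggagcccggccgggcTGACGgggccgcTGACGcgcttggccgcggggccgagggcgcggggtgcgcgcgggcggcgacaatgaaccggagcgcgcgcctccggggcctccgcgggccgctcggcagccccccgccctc
Nr4a3, chr4:48045055-48045152, plus strand: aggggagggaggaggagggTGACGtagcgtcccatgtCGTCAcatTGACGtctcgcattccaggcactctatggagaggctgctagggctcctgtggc
Junb, chr8:84978749-84978998, minus strand: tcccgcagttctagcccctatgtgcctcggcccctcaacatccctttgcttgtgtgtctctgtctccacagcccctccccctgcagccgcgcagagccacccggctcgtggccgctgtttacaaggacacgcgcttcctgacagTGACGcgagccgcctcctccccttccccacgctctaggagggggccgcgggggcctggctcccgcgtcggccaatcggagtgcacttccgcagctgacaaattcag

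The table of RefSeq promoters held 8 of the 10 genes, and Egr1 and Egr3 were not among them. In windows from 250 bases before to 50 bases after the start, searched on both strands, all 8 promoters held the core at least once, against 20.8% of all 32851 promoters in the table. Nr4a1, Nr4a2 and Nr4a3 held 4 copies each, and 76 of all promoters (0.231%) held 4 or more. Fos held 2 copies, and Fosb, Junb, Atf3 and Klf4 held 1 each. None of the 8 windows held the full element TGACGTCA, which 1.79% of all promoters hold, the AP-1 motif TGANTCA, which 7.81% hold, or the serum response element, which 1.63% hold. These are matches of letters within the window and show no binding.

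The genes differed widely in the kind of nucleus that carried them. Each class was set against the mean of the other 8 tested classes with edgeR's quasi-likelihood test on counts summed by class and library, with the library as a block and Benjamini-Hochberg adjustment over 11945 genes. Fosb was too rare to be tested, which left 9 genes. Such contrasts call a large part of all genes, so the shares called over all genes are given with each count. Levels in these paragraphs are CPM of the summed UMIs of a class, as the mean ± SD over the 4 libraries.

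**Figure D1:**
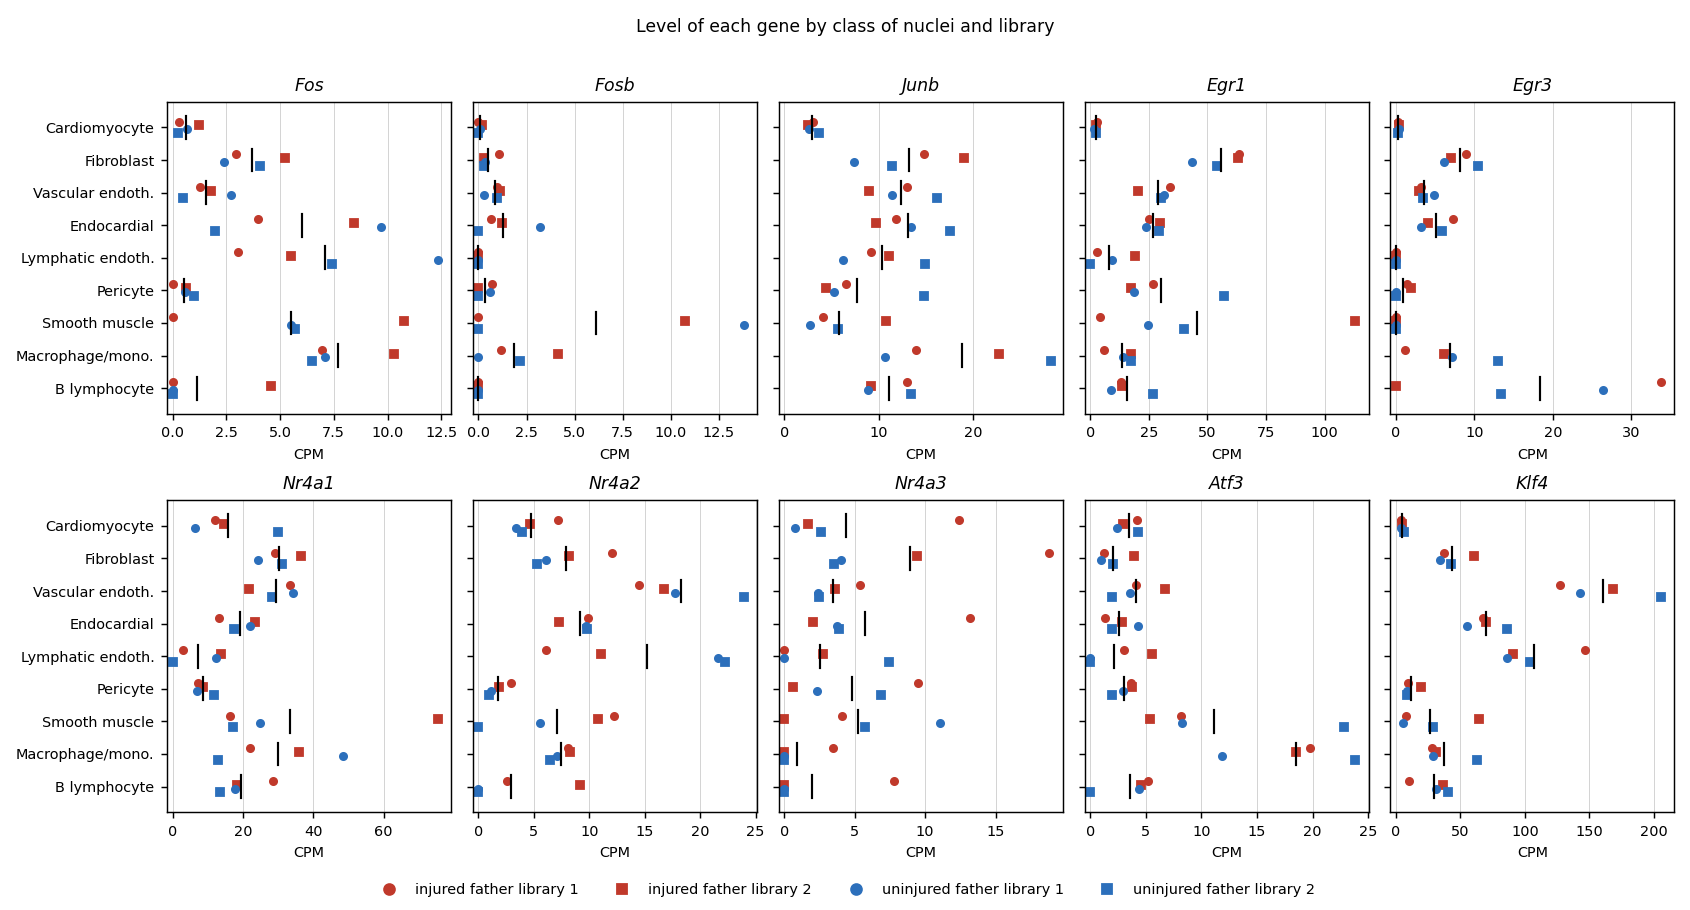
Level of each of the 10 genes (CPM over the UMIs of the class, linear axes that differ between panels) in the 9 tested classes of nuclei. Points are the 4 libraries and black bars their means, and all class names stand for likeness by marker genes. Klf4 is highest in vascular endothelial-like nuclei, between 127 and 206 CPM, and Egr1 in fibroblast-like nuclei is between 43.3 and 63.7 CPM, while cardiomyocyte-like nuclei are low for both.

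Klf4 had its highest mean levels in the endothelial-like and endocardial-like classes. In vascular endothelial-like nuclei it stood at 127 and 168 CPM in the injured-father libraries and at 143 and 206 CPM in the uninjured-father libraries (161 ± 34.5, n = 4). Next were lymphatic endothelial-like nuclei at 107 ± 27.4 CPM and endocardial-like nuclei at 69.7 ± 12.6 CPM. Vascular and lymphatic values overlapped between libraries, whereas all 4 vascular values lay above all 4 endocardial values. Cardiomyocyte-like nuclei held 4.89 ± 1.05 CPM. The log2 difference from the mean of the other classes was 2.53 in vascular endothelial-like nuclei (SE 0.103, edgeR adjusted p = 6.15e-26), 1.75 in lymphatic endothelial-like and 1.08 in endocardial-like nuclei. In fibroblast-like nuclei, at 43.7 ± 11.6 CPM, it was also past the threshold (0.36, edgeR adjusted p = 0.0123). It was -2.56 in cardiomyocyte-like and -1.74 in pericyte-like nuclei. The lymphatic endothelial-like nuclei also carried between 416 and 15488 CPM of erythroid transcripts. Lung epithelial markers summed there to 345 CPM in injured-father library 1 and to at most 2.76 CPM in the others. Dct was among the leading genes of the cluster beside the lymphatic markers. The class may thus be mixed, and the part of other nuclei in its Klf4 level was not tested.

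Because cardiomyocyte-like nuclei are deeper than endothelial-like nuclei, shares of nuclei were also compared after thinning each nucleus to 1000 UMIs. At that depth 12.6% of vascular endothelial-like, 10.6% of lymphatic endothelial-like and 5.82% of endocardial-like nuclei held a UMI of Klf4. The share was 0.423% in cardiomyocyte-like nuclei. Unthinned shares were 2.37% in cardiomyocyte-like and 19.2% in vascular endothelial-like nuclei, at median depths of 4313 and 1555 UMIs. Within the vascular class, Klf4 was highest in the cluster led by Kirrel3 and Vegfc (251 CPM, 1189 nuclei), with libraries between 204 and 325 CPM. The main cluster, led by Ccdc85a, held 133 CPM and the cluster led by Sema3g and Gja5 held 150 CPM. Among fibroblast-like nuclei the cluster led by Gfpt2 and Pi16 held 124 CPM of Klf4, against 32.7 and 28.8 CPM in the other two, and all 4 of its libraries (86.7 to 175 CPM) lay above all 8 values of those clusters.

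Egr1 and Egr3 were most abundant in fibroblast-like nuclei among the large classes. Egr1, a zinc finger factor induced by growth factors and stretch, stood at 63.7 and 63.1 CPM in the injured-father libraries and at 43.3 and 54 CPM in the uninjured-father libraries. The log2 difference from the other classes was 1.77 (SE 0.154, edgeR adjusted p = 5.78e-14). It was also past the threshold in smooth muscle-like (1.33), vascular endothelial-like (0.77), pericyte-like (0.64) and endocardial-like nuclei (0.62), and was -2.66 in cardiomyocyte-like nuclei. The smooth muscle value rested on 38 UMIs spread unevenly, from 4.07 to 113 CPM, with the highest value in injured-father library 2. After thinning, Egr1 was seen in 4.35% of fibroblast-like and 0.296% of cardiomyocyte-like nuclei.

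Egr3, a close relative of Egr1, stood at 8.11 ± 1.97 CPM in fibroblast-like nuclei, with a log2 difference of 2.78 (edgeR adjusted p = 8.29e-07). It was also higher in B lymphocyte-like (4.23), macrophage or monocyte-like (2.32), endocardial-like (2.03) and vascular endothelial-like nuclei (1.61). These are differences from a mean of log levels, which the lymphatic endothelial-like and smooth muscle-like classes enter with 0 UMIs of Egr3. Their size therefore depends on the prior count, and the classes with 0 UMIs enter the calls of Egr3 as well. In plain CPM vascular endothelial-like nuclei, at 3.57 ± 0.851, lay below B lymphocyte-like, fibroblast-like, macrophage or monocyte-like and endocardial-like nuclei. The B lymphocyte-like value came from 20 UMIs, of which 13 were in injured-father library 1 and 0 in injured-father library 2. In cardiomyocyte-like nuclei only 15 UMIs of Egr3 were counted over the 4 libraries.

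Among the tested classes, macrophage or monocyte-like nuclei had the highest mean levels of Atf3, Fos and Junb. Atf3, a stress-induced repressor, stood there at 18.5 ± 4.98 CPM, with libraries between 11.8 and 23.8 CPM, against 2.05 CPM in fibroblast-like and 3.49 CPM in cardiomyocyte-like nuclei. Its log2 difference was 2.13 (SE 0.307, edgeR adjusted p = 8.81e-08), and in fibroblast-like nuclei it was -1.24 (edgeR adjusted p = 0.000772). Fos stood at 7.71 ± 1.75 CPM in macrophage or monocyte-like nuclei and at 0.614 ± 0.444 CPM in cardiomyocyte-like nuclei. Lymphatic endothelial-like (7.08 ± 3.93 CPM) and endocardial-like nuclei (6.01 ± 3.65 CPM) overlapped with the macrophage or monocyte-like nuclei between libraries. The log2 difference of Fos was 1.66 in macrophage or monocyte-like and 1.48 in endocardial-like nuclei, and -2.52 in pericyte-like and -1.57 in cardiomyocyte-like nuclei. Junb was higher in macrophage or monocyte-like (0.97) and fibroblast-like nuclei (0.54) and lower in cardiomyocyte-like nuclei (-1.24). Its libraries in macrophage or monocyte-like nuclei (10.6 to 28.2 CPM) overlapped with those in fibroblast-like nuclei (7.37 to 19.1 CPM). The untested T or NK lymphocyte-like class held 34.2 CPM of Junb from 14 UMIs. Fosb gave 51 UMIs in all, and its largest sum in any class was 11, in vascular endothelial-like nuclei.

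The 3 Nr4a receptors did not share a pattern. Nr4a1 stood at 30.3 ± 5.15 CPM in fibroblast-like, 29.4 ± 5.8 in vascular endothelial-like and 15.8 ± 10.1 in cardiomyocyte-like nuclei. It was past the threshold as higher in vascular endothelial-like (0.67) and fibroblast-like nuclei (0.63) and as lower in pericyte-like nuclei (-1.42). Nr4a2 was higher in vascular endothelial-like nuclei, at 18.2 ± 4.02 CPM (log2 difference 1.64, edgeR adjusted p = 1.42e-09), and lower in pericyte-like nuclei (-2.18). Nr4a3 was higher in fibroblast-like nuclei (log2 difference 1.54, edgeR adjusted p = 6.35e-05) and lower in macrophage or monocyte-like nuclei (-2.26), where only 3 UMIs were counted. In the Schwann or glial-like class of 228 nuclei, which was not tested, Nr4a2 stood at 88.7 ± 30.1 CPM from 42 UMIs and Nr4a1 at 66.4 ± 27.6 CPM from 29 UMIs. These were the highest mean levels of both genes in any class.

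Counted by class, fibroblast-like nuclei had 6 of the 9 tested genes higher and 1 lower, beside 29.7% of all genes higher and 26.9% lower. Vascular endothelial-like nuclei had 5 higher (26.5% of all genes), and endocardial-like (23.4%) and macrophage or monocyte-like nuclei (23.7%) had 4 higher each. Macrophage or monocyte-like nuclei also had 1 lower, beside 21.2% of all genes. Cardiomyocyte-like nuclei had 0 higher and 4 lower, beside 39.7% and 38.4% of all genes. Egr3, at 0.292 CPM there, was not called. Its contrast includes the classes with 0 UMIs and had an SE of 47.1 around -1.63, so it cannot show whether Egr3 was lower. Pericyte-like nuclei had 1 higher and 4 lower, beside 22.3% of all genes in each direction. Lymphatic endothelial-like (14.4%), B lymphocyte-like (15.2%) and smooth muscle-like nuclei (12.6%) had 1 higher each. Egr3, with the limit given above, is among the genes counted as higher in fibroblast-like, vascular endothelial-like, endocardial-like, macrophage or monocyte-like and B lymphocyte-like nuclei. Only nuclei with at least 1000 UMIs, 600 genes and under 1% mitochondrial UMIs gave 3 higher in fibroblast-like nuclei and 1 each in endocardial-like and macrophage or monocyte-like nuclei. The endocardial-like class also held a cluster of 373 nuclei with a median of 6419 UMIs, against 2561 in its other cluster, and the part of remaining doublets in it was not tested.

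The genes were found in the same nuclei more often than their separate shares give. Of 33995 nuclei, 7176 held a UMI of at least 1 of the 10 genes and 242 held UMIs of at least 3. The number for independent detection, computed within class, library and decile of depth, was 95.4, so the observed number was 2.54 times as large. For at least 4 genes, 76 nuclei were observed beside 7.38. By library, the ratio for at least 3 genes was 2.39 and 2.52 in the injured-father libraries and 2.60 and 2.80 in the uninjured-father libraries. The excess was thus of similar size in all 4 hearts. Fibroblast-like nuclei gave 120 of the 242, beside 38.6 for independence.

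**Figure D2:**
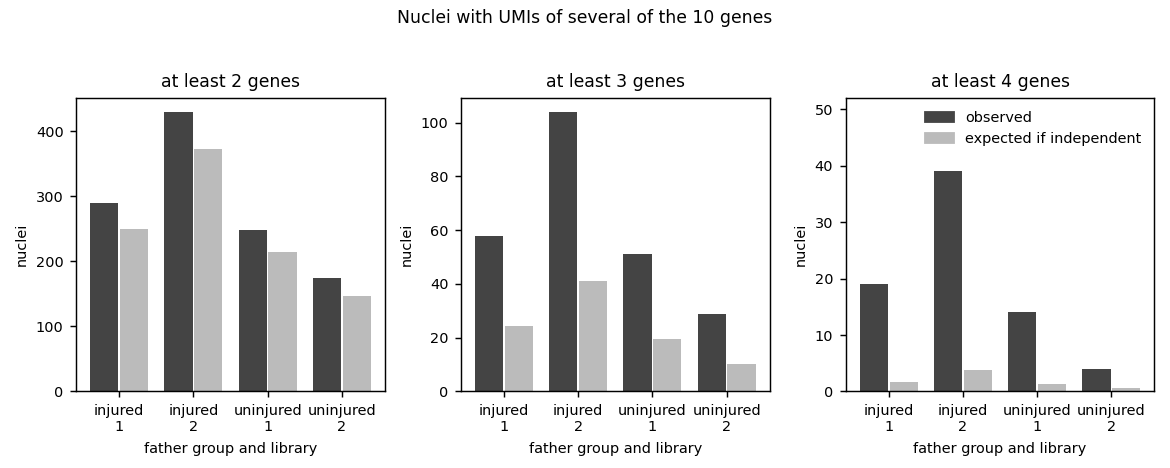
Number of nuclei with UMIs of at least 2, 3 or 4 of the 10 genes in each library (dark bars), beside the number that independent detection within class, library and decile of depth gives (light bars). For at least 3 genes the dark bars stand at 58, 104, 51 and 29 nuclei and the light bars at 24.3, 41.3, 19.6 and 10.3.

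All 45 pairs of genes were seen together at least as often as the product of their shares gives, but by different ratios. Fos and Fosb, partners of Junb in AP-1, met in 10 nuclei beside 0.608 (ratio 16.5). Egr1 and Egr3 met in 72 nuclei beside 19.3 (ratio 3.72), and Nr4a1 and Nr4a3 in 83 beside 28.5 (ratio 2.91). Junb and Egr1 met in 117 beside 44.2 (ratio 2.65). Pairs with Klf4 had the lowest ratios, from 1.04 with Nr4a3 to 1.47 with Fos, apart from Egr1 with Nr4a2 (1.26) and Egr3 with Atf3 (1.37), which lay within that range. In fibroblast-like nuclei Nr4a1 and Nr4a3 met in 42 nuclei beside 10.0. These are descriptions over nuclei, which are not replicates, and counts of 10 or fewer are sparse.

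Nuclei with at least 3 of the genes were also deeper, with a median of 3982 UMIs against 2305 in the others. In fibroblast-like nuclei the share with at least 3 was 1.39% (Wilson 95% interval 0.949 to 2.03) and 2.56% (2.00 to 3.27) in the injured-father libraries, and 0.762% (0.482 to 1.201) and 0.855% (0.519 to 1.41) in the uninjured-father libraries. The injured-father values lay above the uninjured-father values. After thinning to 1000 UMIs this order was gone, with 0.0572% and 0.390% in the injured-father libraries and 0.0889% and 0.316% in the uninjured-father libraries, from 1 to 9 nuclei each. Intervals cover counting error only. With 2 libraries against 2 an exact permutation test cannot give a two-sided p below 0.33, so no test of these shares was made.

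None of the 10 genes passed an adjusted p of 0.05 between injured-father and uninjured-father libraries, in all nuclei together or in any class in which they could be tested. The test was edgeR's quasi-likelihood test on summed counts, adjusted over all genes that passed the filter on low counts. Sums over all nuclei mix the number of nuclei of each class with the level per nucleus, so the classes are described beside them. Over all genes the share called was 0.101% in all nuclei, 0.00803% in fibroblast-like, 0.00797% in cardiomyocyte-like, 0.00966% in endocardial-like and 0.0693% in pericyte-like nuclei, and 0% in vascular endothelial-like, macrophage or monocyte-like and lymphatic endothelial-like nuclei. DESeq2 and limma-voom also called 0 of the 10 genes in each of these comparisons. In smooth muscle-like and B lymphocyte-like nuclei none of the 10 genes had enough counts to enter the test (shares called over all genes 0.0471%, with 0.0235% in each direction, and 0%), and in lymphatic endothelial-like nuclei only Klf4 did. Levels in the paragraphs on the fathers are CPM scaled by TMM, and log2 fold changes are injured-father over uninjured-father. Sums over marker, heat shock or mitochondrial genes, their counts without overlap, and levels within clusters are CPM without TMM.

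**Figure D3:**
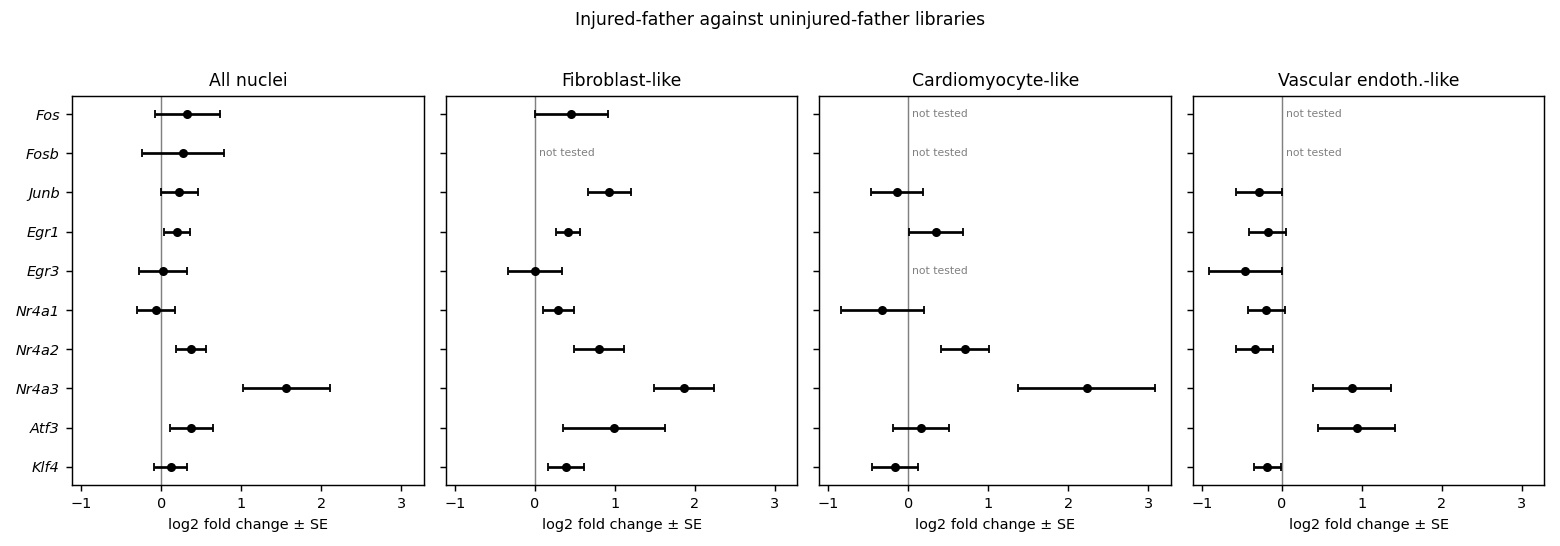
Log2 fold change of injured-father over uninjured-father libraries for each gene, with bars of 1 SE, in all nuclei and in the 3 largest classes. In fibroblast-like nuclei 8 of 9 tested genes lie above 0, and in vascular endothelial-like nuclei 6 of 8 lie below 0. The widest bars belong to Nr4a3 in cardiomyocyte-like nuclei.

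In all nuclei, 9 of the 10 genes had a positive log2 fold change, with a median of 0.25 beside -0.01 over all genes. An unadjusted p under 0.05 was reached by 1 of the 10, beside 6.99% of all genes. This was Nr4a3, at 11.8 and 3.65 CPM in the injured-father libraries and 2.02 and 3.29 CPM in the uninjured-father libraries (log2 fold change 1.57, SE 0.542, edgeR adjusted p = 0.597). Injured-father library 1 stood apart, and injured-father library 2 lay just above the higher uninjured-father value. Without injured-father library 1 the log2 fold change was 0.50. Without injured-father library 2 it was 2.20. Where 1 library is left out, its group holds a lone heart and no spread, so these paragraphs give only the fold change. Without the filter on low counts the edgeR adjusted p was 0.0289, in a range up to 1.00 over the 12 settings run. Nr4a2 stood at 9.69 and 8.04 CPM against 6.72 and 7.01 CPM (log2 fold change 0.37, edgeR adjusted p = 0.772). Atf3 stood at 3.91 and 4.61 CPM against 2.81 and 3.85 CPM (log2 fold change 0.38, edgeR adjusted p = 0.886). For Egr1 too both injured-father values lay above both uninjured-father values, which made 4 of 10 genes beside 17.6% of all genes, and no gene had the opposite order, beside 17.7%. The makeup of the libraries moved with the groups as well, and its part in these values was not tested. Cardiomyocyte markers, of a class low for several of these genes, summed to 33403 and 36301 CPM in the injured-father libraries and to 38590 and 44599 CPM in the uninjured-father libraries, with 8 of 9 lower without overlap. Smooth muscle markers were lower without overlap in 4 of 5. Adipocyte markers were higher without overlap in 7 of 7 (88.1 and 47.7 against 9.72 and 10.1 CPM), mesothelial markers in 6 of 6, endocardial markers in 5 of 6 and T or NK lymphocyte markers in 4 of 7.

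Fibroblast-like nuclei held the largest share of low p-values among the 10 genes. Of 9 tested genes, 4 reached an unadjusted p under 0.05, beside 3.03% of all genes, and all 4 were higher in injured-father libraries without overlap, beside 14.5% of all genes. No tested gene had the opposite order, beside 14.7% of all genes. The median log2 fold change of the 9 was 0.46, and that of all genes was -7.38e-05. The members and this comparison were chosen with earlier results of these data known, and no adjusted p was below 0.704.

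**Figure D4:**
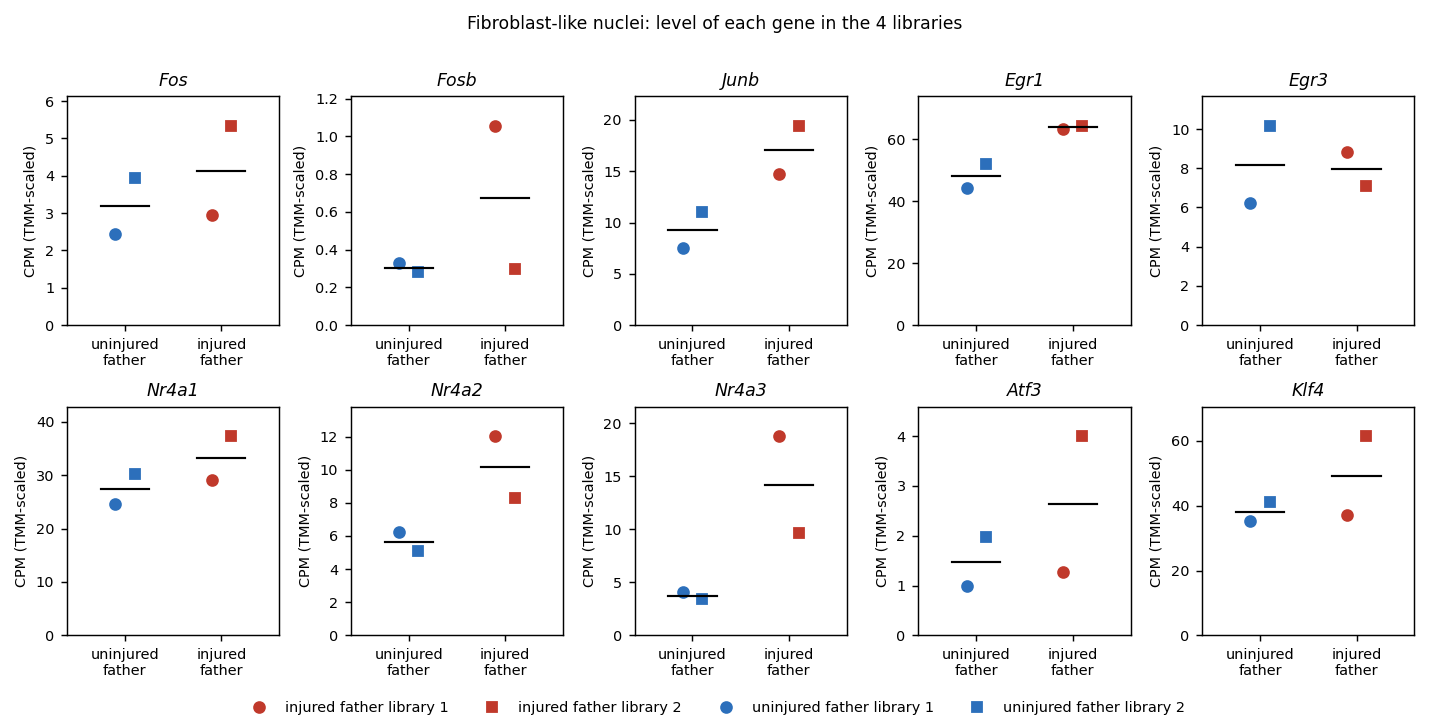
Level of each gene in fibroblast-like nuclei (TMM-scaled CPM, each axis from 0) in the 2 uninjured-father and the 2 injured-father libraries, with black bars at the group means. For Nr4a3, Junb, Egr1 and Nr4a2 both red points lie above both blue points, and for the other 6 genes the groups overlap.

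Nr4a3 had the largest of these differences. It stood at 18.8 and 9.62 CPM in injured-father libraries 1 and 2 and at 4.09 and 3.38 CPM in the uninjured-father libraries. Both injured-father values lay above both uninjured-father values, and they differed from each other by more than the uninjured-father values did. The log2 fold change was 1.87 (SE 0.379, edgeR unadjusted p = 0.000543, adjusted p = 0.704). Without the filter on low counts the adjusted p was 1.38e-06. Without injured-father library 2 the log2 fold change was 2.30, and without injured-father library 1 it was 1.33. Over the 14 settings run, the reported one included, the adjusted p ranged from 1.38e-06 to 1.00 and the log2 fold change from 1.33 to 2.30. In injured-father library 1, 3 nuclei gave 34 of the 89 UMIs, and the highest count in a nucleus was 12. The share of fibroblast-like nuclei with a UMI of Nr4a3 was 2.56% and 1.72% in the injured-father libraries and 0.931% and 0.684% in the uninjured-father libraries. After thinning to 1000 UMIs it was 1.26% and 0.607% against 0.222% and 0.316%, so the order was kept at equal depth. Counts of nuclei were small there, from 5 to 22.

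Junb stood at 14.8 and 19.4 CPM in the injured-father libraries and at 7.52 and 10.99 CPM in the uninjured-father libraries. The log2 fold change was 0.93 (SE 0.267, edgeR unadjusted p = 0.00554), and the adjusted p of 1.00 left it far from the threshold. Without injured-father library 1 the log2 fold change was 1.10 for Junb and 0.69 for Klf4. Klf4 reached 61.4 CPM in injured-father library 2 against 35.2 to 41.2 CPM in the other 3. Without injured-father library 2 the Klf4 value was -0.03. Egr1 stood at 63.5 and 64.2 CPM against 44.2 and 52.1 CPM (log2 fold change 0.42, SE 0.146, edgeR unadjusted p = 0.0166). The thinned share of nuclei with Egr1 was nearly level, at 4.23% and 4.77% in the injured-father libraries and 4.14% and 4.17% in the uninjured-father libraries. Nr4a2, the fourth, stood at 12.02 and 8.29 CPM against 6.22 and 5.07 CPM (log2 fold change 0.80, edgeR unadjusted p = 0.0259). Among the rest, Atf3 (0.99), Fos (0.46), Klf4 (0.39) and Nr4a1 (0.30) overlapped between groups, Egr3 was at -0.00113, and Fosb with 10 UMIs was not tested.

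The fibroblast-like class held 3 clusters, and their proportions differed between libraries. The cluster led by Sntg1 and Igfbp3 made up 39.2% and 42.6% of the class in the injured-father libraries and 34.4% and 32.4% in the uninjured-father libraries. Nr4a3 within that cluster stood at 28.0 and 13.1 CPM against 4.58 and 6.73 CPM, with no overlap. In the cluster led by Gfpt2 and Pi16 it stood at 38.2 and 10.6 CPM against 10.2 and 6.20 CPM, and in the cluster led by Gfra1 and Smoc2 at 4.51 and 5.98 CPM against 1.82 and 1.05 CPM. The order of the groups was thus the same within each cluster, although injured-father library 2 and uninjured-father library 1 were close in the Pi16 cluster. Junb in the Sntg1 cluster stood at 12.2 and 25.8 CPM against 5.09 and 6.73 CPM, while its groups overlapped in the Pi16 cluster (27.8 and 31.8 against 13.3 and 28.9 CPM) and in the Gfra1 cluster (11.7 and 9.44 against 6.98 and 9.45 CPM). Egr1 in the Sntg1 cluster stood at 73.5 and 97.3 CPM against 46.3 and 59.6 CPM, while its groups overlapped in the Pi16 cluster (50.9 and 58.3 against 37.9 and 53.7 CPM) and in the Gfra1 cluster (61.3 and 34.9 against 43.1 and 51.0 CPM). Nr4a2 stood at 15.8 and 12.7 CPM against 6.61 and 9.62 CPM in the Sntg1 cluster and overlapped in the other clusters. The share of all genes without overlap within a cluster is not given here, so these orders are values side by side. Over the whole class Nr4a3 gave only 89 and 65 UMIs in the injured-father libraries and 25 and 12 in the uninjured-father libraries. Its values per cluster thus rest on few UMIs.

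Other measures were compared between the father groups in fibroblast-like nuclei, and their part in these differences was not tested. Beside the counts of genes without overlap stand 14.5% of all genes above and 14.7% below. The measures are unlike: these shares are of genes past the filter on low counts, on TMM-scaled CPM. The counts below take every gene of a list, on CPM without TMM. Heat shock genes, which can mark stress during handling, summed to 197 and 183 CPM in the injured-father libraries and to 148 and 189 CPM in the uninjured-father libraries, with 4 of 9 genes higher without overlap, while the sums overlapped. T or NK lymphocyte markers summed to 41.4 CPM in injured-father library 1 and to between 7.88 and 12.02 CPM in the other 3, so that injured-father library 1 alone was high, and 3 of 7 were higher and 1 lower without overlap. Adipocyte markers summed to 15.01 and 8.15 CPM against 2.40 and 3.21 CPM, with 5 of 7 higher without overlap, and mesothelial markers to 15.2 and 17.0 CPM against 6.89 and 10.8 CPM, with 5 of 6. Mitochondrially encoded transcripts summed to 9396 and 8490 CPM against 9902 and 11493 CPM, with 9 of 13 lower without overlap. Cardiomyocyte markers summed to 3994 and 4902 CPM against 4723 and 5717 CPM, with 3 of 9 lower without overlap, and the neutrophil marker Ly6g was at 0 in every library.

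In cardiomyocyte-like nuclei 7 of the 10 genes were tested, with 4 positive and 3 negative log2 fold changes. An unadjusted p under 0.05 was reached by 2, beside 4.22% of all genes. Nr4a3 stood at 12.4 and 1.71 CPM in the injured-father libraries and at 0.752 and 2.51 CPM in the uninjured-father libraries, so that the groups overlapped and injured-father library 1 alone was high. The log2 fold change was 2.23 (SE 0.853, edgeR unadjusted p = 0.027, adjusted p = 1.00), and 0.23 without injured-father library 1. Without injured-father library 2 it was 3.09. Without the filter on low counts the edgeR adjusted p was 2.25e-08, in a range up to 1.00 over the 14 settings run. In that high library 99 of 1910 nuclei (5.18%) held the 123 UMIs, with at most 3 in a nucleus. All 3 cardiomyocyte-like clusters of injured-father library 1 were above those of the other libraries, at 10.5, 13.6 and 19.0 CPM against 0.225 to 9.05 CPM.

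**Figure D5:**
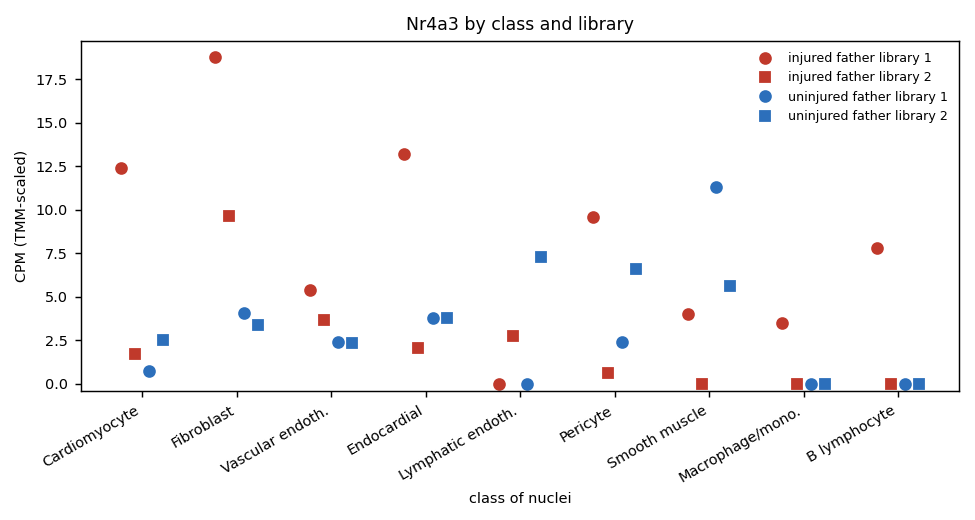
Nr4a3 (TMM-scaled CPM) in the 9 tested classes of nuclei, with a point for each library. Injured-father library 1 is the highest of the 4 in cardiomyocyte-like, fibroblast-like, vascular endothelial-like, endocardial-like, pericyte-like, macrophage or monocyte-like and B lymphocyte-like nuclei. In macrophage or monocyte-like and in B lymphocyte-like nuclei all 3 UMIs of the gene come from that library. Injured-father library 2 is the second highest in fibroblast-like and vascular endothelial-like nuclei.

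Nr4a2 in cardiomyocyte-like nuclei stood at 7.16 and 4.72 CPM in the injured-father libraries and at 3.45 and 3.77 CPM in the uninjured-father libraries, with no overlap (log2 fold change 0.71, edgeR unadjusted p = 0.0387, adjusted p = 1.00). Egr1 stood at 2.72 and 2.60 CPM against 1.88 and 2.39 CPM (log2 fold change 0.35, edgeR adjusted p = 1.00). Nr4a1, the most counted of the 10 in these nuclei with 673 UMIs, ranged from 6.52 to 29 CPM, and both extremes were uninjured-father libraries. Of the 7 tested genes, Nr4a2 and Egr1 were higher without overlap, beside 15.3% of all genes, and 0 were lower without overlap, beside 15.2%. The cluster led by Fgf12 and Myl4, in which 0 of the 9 cardiomyocyte markers were over 2-fold above the other nuclei, made up 12.5% and 14.5% of the class in the injured-father libraries and 9.74% and 4.80% in the uninjured-father libraries.

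Vascular endothelial-like nuclei had 6 negative and 2 positive log2 fold changes among 8 tested genes, with a median of -0.18 beside -0.01 over all genes. An unadjusted p under 0.05 was reached by 0 of the 8, beside 5.28% of all genes. Atf3 stood at 4.13 and 6.85 CPM against 3.63 and 1.89 CPM (log2 fold change 0.94, edgeR adjusted p = 0.957), and Nr4a3 at 5.4 and 3.65 CPM against 2.42 and 2.36 CPM (0.87, edgeR adjusted p = 0.957). For both genes the injured-father values lay above the uninjured-father values, beside 16.6% of all genes. Nr4a2 and Egr3 had the opposite order, beside 17.8% of all genes, with Nr4a2 at 14.6 and 17.1 CPM against 17.9 and 23.2 CPM (-0.34, edgeR adjusted p = 0.964). Klf4, at its highest mean in this class, stood at 128 and 172 CPM against 144 and 199 CPM, and the groups overlapped. The other genes of the response, in the lists described further on, also held none past an adjusted p of 0.05 here. Other immediate early transcription regulators gave 6 positive log2 fold changes of 13 tested (median -0.07), upstream activators 15 of 21 (median 0.03) and heat shock genes 2 of 7 (median -0.15). Effectors and feedback genes gave 3 of 21 (median -0.22), and 11 of them had both injured-father values below both others, beside 17.8% of all genes. These lists are given for this class after their values were seen. The smallest p-value among the effectors was that of Dusp6, a phosphatase of ERK kinases, at 24.5 and 21.5 CPM against 33.3 and 31.2 CPM (log2 fold change -0.50, edgeR adjusted p = 0.868).

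In the smaller classes no gene reached an unadjusted p under 0.05. That is 0 of 6 tested in endocardial-like nuclei (4.36% of all genes), 0 of 5 in macrophage or monocyte-like nuclei (5.3%), 0 of 4 in pericyte-like nuclei (4.22%) and 0 of 1 in lymphatic endothelial-like nuclei (5.46%). In endocardial-like nuclei Junb stood at 11.9 and 9.87 CPM against 13.5 and 17.1 CPM (log2 fold change -0.44), the opposite order to that in fibroblast-like nuclei and the only tested gene there without overlap, beside 16.4% of all genes above and 15.8% below. Egr1 was at 25.1 and 30.4 CPM against 23.7 and 28.6 CPM there, and Klf4 at 67.9 and 71.1 CPM against 55.5 and 83.8 CPM. In macrophage or monocyte-like nuclei Klf4 stood at 27.8 and 31.4 CPM against 28.7 and 61.3 CPM, Egr1 at 5.79 and 17.8 CPM against 14.3 and 16.9 CPM, and Atf3 at 19.7 and 18.9 CPM against 11.9 and 23.3 CPM. All 5 genes tested there overlapped between groups, beside 16.9% of all genes above and 17.3% below without overlap.

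In pericyte-like nuclei Egr1 stood at 27.3 and 17.6 CPM against 19.1 and 54.8 CPM (log2 fold change -0.63). Without uninjured-father library 1 the log2 fold change was -1.30, with 54.8 CPM in uninjured-father library 2 as the lone uninjured-father value. Without uninjured-father library 2 it was 0.22. Klf4 stood at 9.61 and 19.5 CPM against 8.93 and 8.50 CPM, the only tested gene there without overlap (15.8% of all genes above, 16.4% below), and Nr4a3 at 9.61 and 0.628 CPM against 2.38 and 6.61 CPM. In lymphatic endothelial-like nuclei Klf4 stood at 146 and 91.4 CPM against 88.0 and 102 CPM, which overlapped (16.9% of all genes above, 18.2% below).

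Whether the father difference itself varied between classes was tested with an edgeR interaction term over the 36 sums of 9 classes and 4 libraries. Of the 9 genes tested, 0 passed an adjusted p of 0.05, beside 0.1% of all genes. The smallest values were those of Nr4a2 (edgeR adjusted p = 0.778) and Junb (edgeR adjusted p = 0.81). The opposite orders of these genes in fibroblast-like and endothelial-like nuclei are therefore values side by side, and a difference between the classes was not shown.

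Other genes of the response were tested as lists in all nuclei and in each of the 9 classes, and 0 of them passed an adjusted p of 0.05 in either direction. All nuclei and fibroblast-like nuclei are described. Of 18 other immediate early transcription regulators, 16 were tested in all nuclei, with 13 positive log2 fold changes and a median of 0.08. In fibroblast-like nuclei 12 of 15 were positive with a median of 0.21. Jund, another AP-1 partner, stood there at 87.7 and 87.0 CPM against 68.5 and 73.3 CPM (log2 fold change 0.30, edgeR unadjusted p = 0.0432). Cebpb, an inflammatory leucine zipper factor, stood at 9.70 and 17.8 CPM against 18.3 and 23.1 CPM (-0.55). In all nuclei the 2 smallest p-values belonged to Cebpb (-0.35, edgeR unadjusted p = 0.0474) and Klf10 (0.36).

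Effectors and feedback genes, which include phosphatases and RNA-binding proteins that end the response, gave 13 positive values of 23 tested in fibroblast-like nuclei (median 0.06) and 13 of 24 in all nuclei (median 0.01). The smallest p-values belonged to Dusp5, a phosphatase of ERK kinases (0.83 in fibroblast-like and 0.56 in all nuclei), with Dusp6 (0.54) in fibroblast-like nuclei and Dusp2 (1.14) in all nuclei. Upstream activators gave 15 positive of 21 in fibroblast-like nuclei (median 0.05) and 13 of 21 in all nuclei (median 0.06). Camk4, a calcium-dependent kinase that is also a leading gene of the T or NK lymphocyte-like cluster, stood at 28.1 and 14.6 CPM against 13.2 and 10.3 CPM in all nuclei (log2 fold change 0.84, edgeR unadjusted p = 0.0245). Crem, a factor of the cAMP response element, stood at 56.9 and 59.6 CPM against 51.7 and 42.8 CPM (0.30). In fibroblast-like nuclei the values were 0.39 for Camk4 and 0.25 for Crem, and both overlapped between groups.

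Heat shock genes gave 8 positive of 9 in all nuclei (median 0.18) and 5 of 7 in fibroblast-like nuclei (median 0.14). Hsph1 stood at 32.6 and 21.8 CPM against 17.5 and 15.9 CPM in all nuclei (log2 fold change 0.70, edgeR unadjusted p = 0.00981) and at 49.6 and 36.0 CPM against 27.5 and 31.0 CPM in fibroblast-like nuclei (0.55, edgeR unadjusted p = 0.0164). Hspa1b in all nuclei was highest in injured-father library 2, at 3.19 CPM against 0.364 to 0.993 CPM in the other 3 libraries. Hsp90aa1 in fibroblast-like nuclei stood at 53.3 and 51.2 CPM against 39.1 and 45.9 CPM (0.31). In fibroblast-like nuclei the direction of the median of all 4 lists was the same as for the 10 genes, at a smaller size.

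The summed level of 9 of the 10 genes, without the rare Fosb, was compared with that of every other gene. This was done over the 36 class and library sums, after the class mean was removed from each. Among 9498 genes with at least 10 CPM on average, the 8 most alike that were not predicted genes were Gnai2 (r = 0.67), Ethe1 (0.66), Cracr2b (0.65), Gdpd3 (0.64), Gpx1 (0.64), Klhl14 (0.64), Ppp1r8 (0.63) and Pla2g6 (0.62). None of them is on the lists of the response. The sums share libraries and their depth, so these correlations are descriptions. Smooth muscle-like nuclei spread the most. The 10 genes summed there to 56.9 and 302 CPM in the injured-father libraries, from 14 and 56 UMIs. The part of this class in the correlations was not tested. Each of the 9 genes was also set against the sum of the other 8 in the same way. Junb (0.61) and Egr1 (0.48) followed that sum most closely, and Fos (0.29), Nr4a1 (0.25) and Klf4 (0.19) less so. Atf3 (-0.01), Egr3 (-0.07), Nr4a2 (-0.08) and Nr4a3 (-0.24) did not rise with it.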

How the data were processed

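The data are UMI counts per nucleus from 4 single-nucleus RNA libraries, 1 mouse heart each, made with a 3' kit after a Ter119 sort against blood cells, per the labels' protocols. The authors deposited whole-number counts per gene and barcode from Cell Ranger 6.0.1, per the file headers. Seurat 4.0 is named in the submitters' processing notes. Build, annotation and the treatment of intron reads: not given in the sources used here.

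Nuclei with at least 500 UMIs, 300 genes and under 5% mitochondrial UMIs were kept, and doublets marked by Scrublet in scanpy 1.11.5 were removed. Clusters came from 3000 variable genes without the 10 genes and the listed response genes, 30 components, 20 neighbours and Leiden resolution 1.0, and were named from marker lists. Counts were summed by class and library and tested with edgeR 4.0.16 (quasi-likelihood, TMM, minimum count 10, Benjamini-Hochberg over all genes tested). DESeq2 1.42.0 and limma 3.58.1 were alternatives. The tests were checked on simulated counts. Within a library depth sets the precision, and intervals are Wilson 95% intervals.

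The 10 genes and all lists were chosen with earlier results of these data known. Values per library are given for genes past the threshold and for the 3 with the smallest unadjusted p in a comparison, and from each response list for the 2 with the smallest p. Genes named beyond this were chosen after their values were seen. Gene positions are from GENCODE M21.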

Additional observations from a re-analysis of the deposited data

How the results depend on the processing

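Results were recomputed under 1 changed choice at a time. Lymphatic endothelial-like nuclei could not be tested with doublets kept or at Leiden resolution 2.0, which left 41 and 38 nuclei in uninjured-father library 2, and the choices on clustering do not apply to all nuclei. The lymphatic endothelial-like class held 427 nuclei, against 279 with doublets kept and 275 at resolution 2.0. Under both changes another cluster, led by Dct and Hba-a1, was named erythroid, with 472 and 823 nuclei. How many of its nuclei came from the lymphatic endothelial-like class was not tested. Genes called between father groups in all nuclei numbered 15, against 98 with DESeq2, 4 with limma-voom, 196 without the filter on low counts and 25 with the stricter nucleus filter. In cardiomyocyte-like nuclei the 1 gene became 20, 0 and 178, and 2 with doublets kept. In fibroblast-like nuclei 1 became 5, 3 and 44, 3 with library totals in place of TMM, 2 with doublets kept, 0 with the stricter filter and 2 at Leiden resolution 2.0. In endocardial-like nuclei 1 became 3, 2 and 56, 2 with library totals, 12 with doublets kept and 12 with the stricter filter. In pericyte-like nuclei 7 became 4 with DESeq2, 18 without the low-count filter, 2 with doublets kept, 3 with the stricter filter, 4 with the 10 genes among the variable genes and 4 at resolution 2.0. Counts of 0 became 2, 1 and 50 in vascular endothelial-like nuclei (2 with library totals, 2 with doublets kept, 2 with the stricter filter, 3 with the 10 genes among the variable genes), 2, 1 and 76 in lymphatic endothelial-like nuclei, and 2 with DESeq2, 58 without the low-count filter, 2 with doublets kept and 1 with the stricter filter in macrophage or monocyte-like nuclei. Leaving out 1 library gave 0 to 542 in all nuclei, 0 to 125 in cardiomyocyte-like, 0 to 143 in fibroblast-like, 2 to 52 in endocardial-like, 10 to 31 in pericyte-like, 9 to 59 in vascular endothelial-like, 0 to 12 in lymphatic endothelial-like and 2 to 76 in macrophage or monocyte-like nuclei, with the lone library assumed to vary like the others. Of the 10 genes, 1 was called without the low-count filter in all, cardiomyocyte-like and fibroblast-like nuclei, and leaving out 1 library called 0 to 1 in all, cardiomyocyte-like and pericyte-like nuclei and 0 to 2 in fibroblast-like nuclei. The cause of these changes was not tested.

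The labels do not say what the replicate number shares. Deviations of same-numbered libraries from their group means had a correlation of 0.088 over genes (2 pairs). With so few libraries this cannot show whether the numbers pair them. With the number as a replicate block the calls were 210 in all nuclei, 10 in cardiomyocyte-like, 3 in fibroblast-like, 45 in endocardial-like, 4 in pericyte-like, 1 in vascular endothelial-like and 38 in lymphatic endothelial-like nuclei, and 0 of the 10 genes.

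Class counts moved with the stricter filter for genes higher in fibroblast-like (6 to 3), endocardial-like (4 to 1), macrophage or monocyte-like (4 to 1) and smooth muscle-like nuclei (1 to 0). With doublets kept or at resolution 2.0, vascular endothelial-like nuclei had 3 higher in place of 5 and pericyte-like nuclei 0 in place of 1. With the 10 genes among the variable genes, lymphatic endothelial-like nuclei had 2 higher and smooth muscle-like nuclei 0. Genes lower in macrophage or monocyte-like nuclei went from 1 to 0 with doublets kept and with the stricter filter and to 2 at resolution 2.0, and B lymphocyte-like nuclei had 1 lower with doublets kept. Leaving out 1 library gave 2 to 4 higher in endocardial-like, 1 to 2 in lymphatic endothelial-like and 0 to 1 in pericyte-like, smooth muscle-like and cardiomyocyte-like nuclei, and 0 to 1 lower in endocardial-like and smooth muscle-like nuclei and 0 in macrophage or monocyte-like nuclei. Shares depend on depth: Klf4 in vascular endothelial-like nuclei was 12.6% at 1000 UMIs, 19.2% unthinned and 6.49% at 500 UMIs, and Egr1 in fibroblast-like nuclei 4.35%, 7.96% and 2.53%. Nuclei with at least 3 of the genes were 0.712%, with at least 2 of them 3.37%, and after thinning to 1000 UMIs, an alternative chosen after seeing the data, 0.107%.

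Signs turned for values that were not called in the comparison over all 4 libraries. Leaving out 1 library gave a range of -0.0205 to 0.274 for Egr1, with -0.00861 without injured-father library 2, and of -0.261 to 0.331 for Klf4 in endocardial-like nuclei. With doublets kept Egr1 was -0.121 and Junb 0.0816 there. In lymphatic endothelial-like nuclei Klf4 ranged from -0.0119 to 0.659 and was -0.361 with the stricter filter. In pericyte-like nuclei Nr4a3 ranged from -0.441 to 1.21 and was -0.481 with limma-voom, and Egr1 ranged from -1.30 to 0.222. In macrophage or monocyte-like nuclei the ranges were -1.39 to 0.217 for Egr1, -0.271 to 0.690 for Atf3 and -1.04 to 0.0556 for Klf4.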
